A study of Mus musculus with 20 samples.

Results

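The comparison described here set livers of mice given Nafion byproduct 2 at 3 mg/kg per day against livers of control mice, across every gene the assay detected. Its members were chosen by the dose in the sample labels, which gave 8 of the 20 libraries of the series: 4 at 3 mg/kg and 4 at 0 mg/kg. The compound, an ether sulfonic acid with fluorine in place of most hydrogen, is one of the per- and polyfluoroalkyl substances. All 8 mice were male Balb-C animals aged 10 to 12 weeks that received 1 oral gavage a day on 7 days in a row, and each library came from 1 animal. No genetic change separates the groups, which differ by label in the dose alone. For the controls the protocol names deionized water and the sample titles name DMSO, and which vehicle the animals received was not settled. RNA was counted with TempO-Seq, in which pairs of detector oligonucleotides that sit side by side on a transcript are ligated and sequenced, so that a gene is read by 1 or a few short probes. Labels number no replicates. The numbers 1 to 4 used below name libraries only, and lists of 4 values run in that order.

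The liver clears foreign chemicals through nuclear receptors that switch on blocks of enzymes. The constitutive androstane receptor (CAR) and the pregnane X receptor (PXR) raise transcription of Cyp2b, Cyp2c and Cyp3a cytochromes P450, of the reductase that feeds them electrons, and of enzymes that conjugate or export the products. Peroxisome proliferator-activated receptor alpha (PPARα) does the same for genes that break down fatty acids and is a known target of many perfluorinated acids in rodents. NRF2 responds to electrophiles and raises glutathione transferases and quinone reductase. Activation of CAR or PPARα in mice is also known to drive hepatocytes, which seldom divide in the adult, into the cell cycle.

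The 3 mg/kg libraries held between 6823518 and 9177664 counts and the controls between 7123004 and 9890662, and the difference in total counts was smaller than the spread within groups (exact two-sided permutation p = 0.857, with 0.0286 the smallest p that 4 against 4 allows). The 3 mg/kg libraries were prepared in plate row B and the control libraries in row A, so that dose and plate row cannot be told apart within these 8 libraries. Alb, the hepatocyte marker, ran from 7265 to 10800 CPM (counts per unit of library size, scaled between libraries) at 3 mg/kg and from 10040 to 11540 CPM in controls. The summed level of 11 hepatocyte markers ran from 27400 to 30600 CPM at 3 mg/kg, against 29200 to 34000 CPM in controls.

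One of the 8 libraries stood apart from the rest in the ratios between probes of a gene. In 1147 genes with 2 well-measured probes, the ratio between the 2 probes of a gene was compared with its mean in controls. In replicate 4 at 3 mg/kg this ratio had shifted by more than 2-fold in 426 genes, or 37.1%. In the other libraries at 3 mg/kg the share was 1.66% to 1.92%, and in controls it was 0% to 1.31%. A library at 6 mg/kg, replicate 4 of that dose, shared the trait at 28.8%, and the other 3 at 6 mg/kg had 5.49% to 6.45%. The mean correlation of replicate 4 with the other libraries at 3 mg/kg was 0.947, against 0.976 to 0.977 for replicates 1 to 3 and 0.984 to 0.989 among controls. A gene's value in this library could therefore depend on which of its probes was read. Calls lost without this library are named as such below, and for some genes the values are given with and without it.

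**Figure D1:**
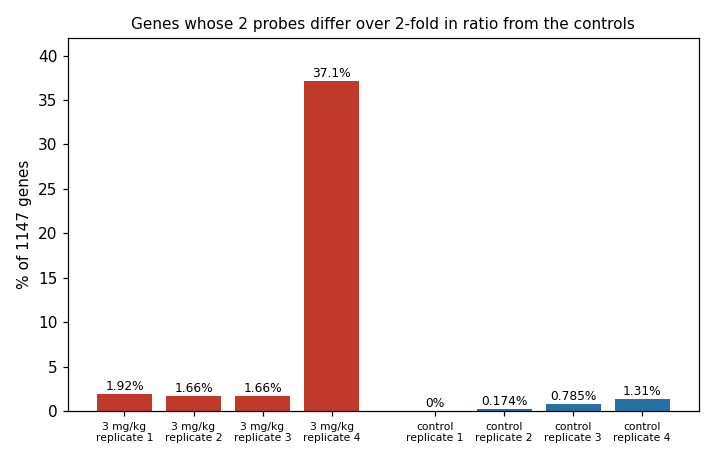
Share of 1147 genes, in percent (y axis), whose ratio between 2 probes lay more than 2-fold from the control mean, for each library at 3 mg/kg and each control library (x axis, grouped by dose). Replicate 4 at 3 mg/kg stands at 37.1% and the other 3 libraries of its group at 1.66% to 1.92%. Controls stand at 0% to 1.31%.

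After 7 days at 3 mg/kg, some drug-metabolizing cytochromes P450, some glutathione transferases and part of the genes of DNA replication and mitosis were higher than in controls, and a smaller number of genes was lower. Counts of 14122 probes for 10101 genes were tested with edgeR's quasi-likelihood test, and a probe was called at a Benjamini-Hochberg adjusted p under 0.05 over all probes. The test called 211 probes (1.49%), of which 157 (1.11%) were higher at 3 mg/kg and 54 (0.382%) lower. Read by its main probe, the one with the highest mean count, a gene was called in 155 cases (1.53%), 114 higher (1.13%) and 41 lower (0.406%). Counts of called members of gene lists given below are to be read beside these shares of all genes. Whether called or not, 347 genes (3.44%) had all 4 libraries at 3 mg/kg above all 4 controls and 463 (4.58%) had them all below. The median log2 fold change over all genes was −0.01. In the same fit without the robust option, 1755 of the 14122 probes had an unadjusted p under 0.05 in either direction. Counts at that cutoff given below are to be read beside that share. Among the higher probes, 66 had changed 4-fold or more, 69 between 2-fold and 4-fold and 22 by less than 2-fold. Among the lower probes, the same 3 classes held 21, 19 and 14.

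Calls depended on single libraries. With each of the 8 libraries left out in turn, 83 of the 157 higher probes and 14 of the 54 lower probes were called in every fit. Without replicate 4 at 3 mg/kg, 212 probes were called, 139 higher and 73 lower, and these shared 119 higher and 24 lower probes with the full fit. With plate row as a covariate, which rests on the 0.3 mg/kg group alone to separate row from dose, 1 probe was called, that of Cyp2c66, while 208 of the 211 kept their sign. A fit on the 8 libraries alone, which estimates the spread without the other doses, called 44 probes. Every gene described as higher or lower below was called by its main probe in all 8 of the fits without 1 library, unless the text names the libraries whose removal ended the call.

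**Figure D2:**
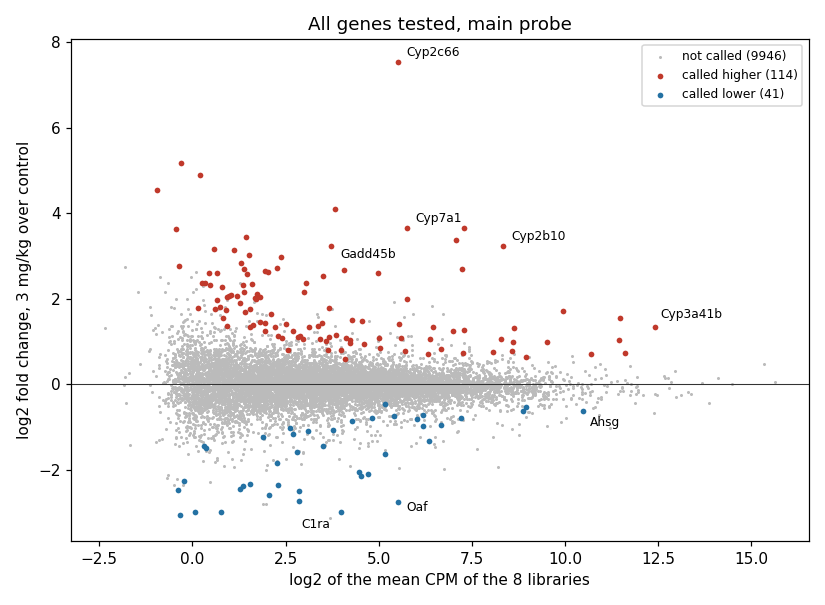
Log2 fold change of 3 mg/kg over control (y axis) against the log2 of the mean CPM of the 8 libraries (x axis), 1 point per gene by its main probe. Genes called higher (114) outnumber genes called lower (41), and Cyp2c66 is the highest point.

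The cytochrome P450 response was led by Cyp2c66, a Cyp2c monooxygenase that lies at chr19:39113898-39187072 (GRCm38). It stood at 58.9, 96.0, 125 and 81.6 CPM at 3 mg/kg, against 0.749, 0.844, 0.108 and 0.26 CPM in controls. No library at 3 mg/kg came near a control. The log2 fold change was 7.54 ± 0.53 (SE, adjusted p = 2e-07), a fitted value that leans on control counts near 0. Cyp2b10, the standard mouse marker of CAR activity (chr7:25897620-25926624), reached 410.3, 682, 768 and 464 CPM at 3 mg/kg, against 90.6, 74.6, 28.9 and 54.9 CPM in controls. The lowest treated library was above the highest control, with a log2 fold change of 3.22 ± 0.42 (adjusted p = 0.000313). Its other probe showed the split described for replicate 4: it read 390.1, 705.4, 864.6 and 36.4 CPM at 3 mg/kg and 42.4 to 107.6 CPM in controls, and was called as well (2.64 ± 0.58 on the log2 scale, adjusted p = 0.0255). That probe lost its call without replicate 2 or 3 at 3 mg/kg or any one control (adjusted p up to 0.0881). Por, the flavoprotein that passes electrons to all microsomal P450s, had 54.8, 71.8, 121 and 98.6 CPM at 3 mg/kg and 17.5, 15.9, 28.7 and 25.4 CPM in controls. Its groups did not overlap, and the log2 fold change was 1.98 ± 0.34 (adjusted p = 0.00371).

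Of 57 genes listed as targets of CAR or PXR, 55 were tested, 21 were called higher and none lower, beside the 1.13% higher and 0.406% lower of all genes. DESeq2 and limma-voom also called 0 of them lower, and 1 was lower at an unadjusted p under 0.05. Their median log2 fold change was 0.77, against −0.01 for all genes, and 16 of the 21 were called in each of the 8 fits without 1 library. Cyp2a5, the coumarin hydroxylase, averaged 567 ± 159 CPM at 3 mg/kg and 227 ± 39.7 CPM in controls (SD, n = 4 each, log2 fold change 1.32 ± 0.25, adjusted p = 0.00561). Other probes of Cyp2a5 had log2 fold changes of 1.57 and 0.86 (adjusted p = 0.00317 and 0.503). Cyp2c54 averaged 4261 ± 1053 CPM at 3 mg/kg and 1448 ± 413 CPM in controls (log2 fold change 1.56 ± 0.24, adjusted p = 0.000672). Both of its probes were called higher. Cyp2c55 read 192, 416, 527 and 34.8 CPM at 3 mg/kg, against 43.6, 22.1, 11.7 and 15.1 CPM in controls. Here replicate 4 lay inside the control range, and the log2 fold change was 3.66 ± 0.63 with it and 4.04 ± 0.48 without it. Tsku, which encodes the secreted protein tsukushi, had 41.5 to 65.4 CPM at 3 mg/kg and 4.12 to 18.3 CPM in controls (2.60 ± 0.52 on the log2 scale, adjusted p = 0.0136), and lost its call without control replicate 1, 2 or 4 (adjusted p up to 0.0615). Receptor transcripts themselves were not called: Nr1i3, which encodes CAR, averaged 381 ± 75.3 CPM at 3 mg/kg and 443 ± 116 CPM in controls, and Nr1i2, which encodes PXR, averaged 48.6 ± 13.6 and 35.2 ± 3.40 CPM in the same order (adjusted p = 0.726 and 0.289).

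Single P450 families held members that passed the test beside members that did not. In the Cyp2c family, 4 of 14 tested genes were called higher and 1 lower. The lower one, Cyp2c67, had 2.08, 2.82, 1.19 and 0.286 CPM at 3 mg/kg, against 9.23, 7.04, 4.10 and 12.3 CPM in controls (log2 fold change −2.36 ± 0.47, adjusted p = 0.00921). Cyp2c37 averaged 4.19 ± 1.57 CPM at 3 mg/kg and 1.62 ± 0.335 CPM in controls, and its call was lost without replicate 3 at 3 mg/kg or without control replicate 1, 2 or 4 (adjusted p up to 0.093). Cyp2c genes are close copies of each other and the probes were not checked for cross-annealing, so the split between members is uncertain. Of 7 Cyp3a genes, 2 were called higher and none lower. Cyp3a41b, a form more abundant in female mouse liver, read 6012 to 9852 CPM at 3 mg/kg and 2558 to 3345 CPM in controls (1.33 ± 0.22 on the log2 scale, adjusted p = 0.00222). It too has close copies. Cyp3a13 had 15.1 to 40.9 CPM at 3 mg/kg and 11.5 to 14.4 CPM in controls, and lost its call without replicate 3 or 4 at 3 mg/kg or without control replicate 1, 2 or 3 (adjusted p up to 0.0965).

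Cyp3a11, the classical PXR target, gave 2 answers. Its main probe read 1194, 1388, 2232 and 95.5 CPM at 3 mg/kg, against 1712, 1428, 1179 and 1943 CPM in controls, and was not called (−0.35 ± 0.54 on the log2 scale, adjusted p = 0.831). The other probe read 712.6, 756.2, 1265 and 1544 CPM at 3 mg/kg, against 320.4, 352.9, 428.6 and 318.3 CPM in controls. That probe was called higher, with no overlap between groups (1.59 ± 0.33, adjusted p = 0.0135), and lost its call without control replicate 1 or 4 (adjusted p up to 0.0559). The probes differed furthest in replicate 4, and without that library the main probe had a log2 fold change of 0.04. Cyp1a2, the dioxin-inducible P450, averaged 67.3 ± 33.5 CPM at 3 mg/kg and 42.8 ± 9.29 CPM in controls and was not called (adjusted p = 0.286).

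Electron carriers other than Por passed the test by a narrow margin. Pgrmc1, a heme-binding protein of the endoplasmic reticulum, averaged 3925 ± 376 CPM at 3 mg/kg and 2371 ± 243 CPM in controls (log2 fold change 0.73 ± 0.18, adjusted p = 0.0372). Cyb5a, cytochrome b5, averaged 2054 ± 309 CPM at 3 mg/kg and 1266 ± 259.5 CPM in controls (0.70 ± 0.17, adjusted p = 0.0403). Neither call survived the loss of replicate 2, 3 or 4 at 3 mg/kg or of control replicate 2 or 3, and Pgrmc1 also lost it without control replicate 1 and Cyb5a without control replicate 4 (adjusted p up to 0.105 for Pgrmc1 and 0.146 for Cyb5a). In all, 3 of 14 genes of P450 electron transfer and heme synthesis were called higher and none lower. Among all genes 1.13% were called higher and 0.406% lower.

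**Figure D3:**
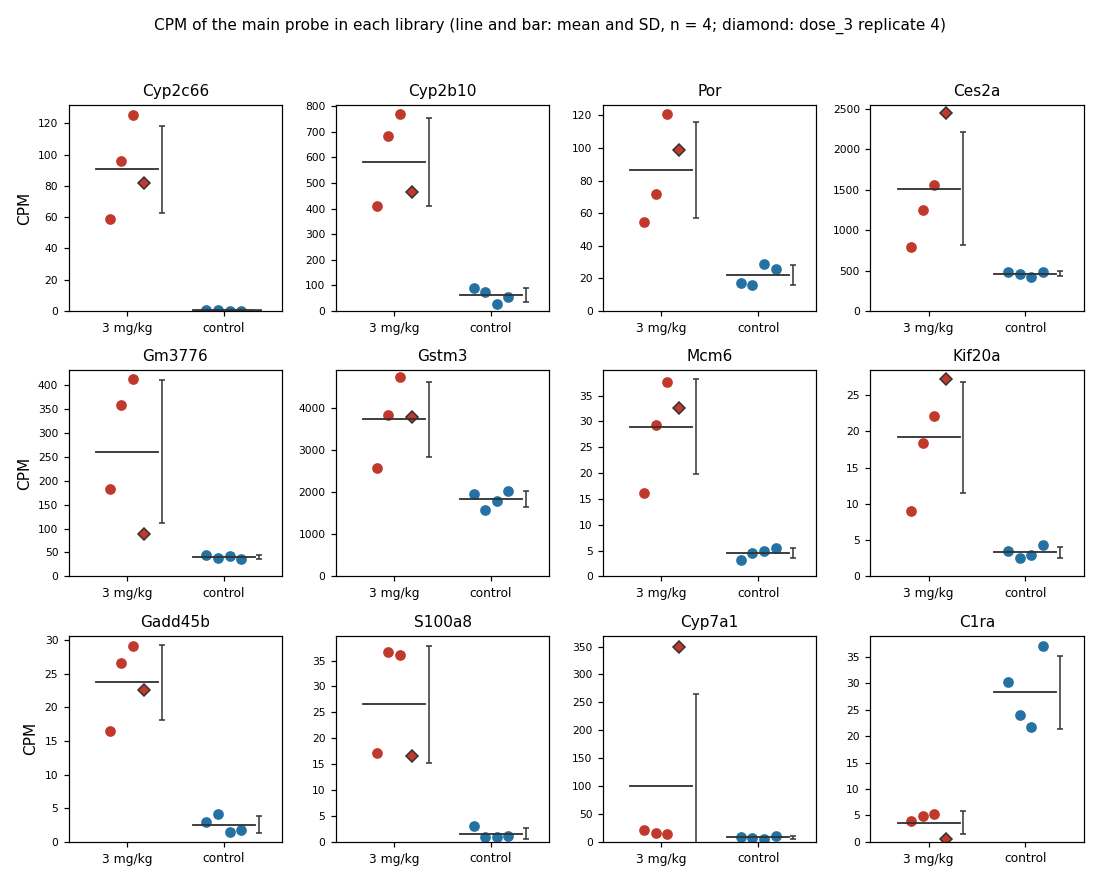
CPM of the main probe of 12 genes (y axes, linear and starting at 0) in the 4 libraries at 3 mg/kg (left in each panel) and the 4 controls (right), with the mean and SD; diamonds mark replicate 4 at 3 mg/kg. For Cyp2c66, Cyp2b10, Por, Mcm6 and Gadd45b all treated libraries lie above all controls, whereas for Cyp7a1 a single library at 348 CPM sets the mean.

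Some glutathione transferases, which couple glutathione to electrophiles, rose at 3 mg/kg. Of 23 tested transferases, 6 were called higher and none lower, beside 1.13% higher and 0.406% lower among all genes. The median log2 fold change of the 23 was 0.43, and all 6 were called in each of the 8 fits without 1 library. Gm3776, annotated as an alpha-class transferase, read 184, 359, 412 and 89.5 CPM at 3 mg/kg, against 44.3, 38.7, 42.6 and 36.5 CPM in controls. All 4 treated libraries were above the controls and replicate 4 was the lowest of them (log2 fold change 2.69 ± 0.33, adjusted p = 0.000124). Gsta1 read 175, 325, 464 and 13.7 CPM at 3 mg/kg, against 24.2, 21.5, 28.5 and 20.0 CPM in controls. Replicate 4 was below every control, and the log2 fold change was 3.37 ± 0.62 with it and 3.77 ± 0.33 without it (adjusted p = 0.00657 and 1.8e-06). Alpha-class transferases are near copies, so the counts of Gm3776, Gsta1 and Gsta2 may hold reads of each other. Gstm3, a mu-class transferase, averaged 3729 ± 888 CPM at 3 mg/kg and 1835 ± 199.9 CPM in controls (1.02 ± 0.16, adjusted p = 0.00138). Gstt3, of the theta class, averaged 67.2 ± 25.1 CPM at 3 mg/kg and 25.4 ± 2.09 CPM in controls, and all 3 of its probes were called higher. The call of 1 of the 3 rested on replicate 4 at 3 mg/kg, with a log2 fold change of 2.17 with it and 1.47 without it (adjusted p = 0.0494 and 0.252), and of the other fits without 1 library it was kept in that without replicate 1 at 3 mg/kg alone.

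Other enzymes of conjugation and hydrolysis rose in small numbers. Ugdh, which makes the glucuronic acid donor, averaged 515 ± 165 CPM at 3 mg/kg and 261 ± 16.7 CPM in controls (0.98 ± 0.18, adjusted p = 0.00407). Ces2a, a carboxylesterase, read 795, 1255, 1561 and 2447 CPM at 3 mg/kg, against 479.7, 458, 419 and 487 CPM in controls (1.72 ± 0.26, adjusted p = 0.00083). All 4 of its probes were called higher, as was the main probe of Ces2c, a close copy. The other 3 probes of Ces2a each lost the call in 4 or 5 of the 8 fits without 1 library. For 1 of them the log2 fold change was 2.49 with replicate 4 at 3 mg/kg and 1.25 without it (adjusted p = 0.0468 and 0.308). Sult1e1, the estrogen sulfotransferase, had 2.21 to 6.99 CPM at 3 mg/kg and 0.25 to 1.19 CPM in controls (2.32 ± 0.41, adjusted p = 0.00376). The retinaldehyde dehydrogenase Aldh1a1 averaged 34.6 ± 17.8 CPM at 3 mg/kg and 12.5 ± 2.48 CPM in controls, and its relative Aldh1a7 averaged 129.6 ± 29.5 and 73.4 ± 6.43 CPM in the same order. By list, 2 of 18 glucuronidation genes, 2 of 14 carboxylesterases, 1 of 14 sulfation genes and 2 of 13 aldehyde dehydrogenases were called higher by edgeR and none lower. The edgeR shares among all genes were 1.13% higher and 0.406% lower. DESeq2 and limma-voom each called 1 carboxylesterase lower and no gene of the other 3 lists lower. The glucuronosyltransferase Ugt2b35 read 282, 306, 328 and 778 CPM at 3 mg/kg, against 197 to 211 CPM in controls, and was no longer called without replicate 4 at 3 mg/kg (log2 fold change 0.58, adjusted p = 0.0719) or without any one control (adjusted p up to 0.102).

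Among 38 tested targets of NRF2, 8 were called higher and none lower, beside 1.13% higher and 0.406% lower among all genes. The median log2 fold change of the 38 was 0.40. The 8 were Gstm3, Gstm4, Gsta1, Gsta2, Ugdh, Aox1, Abcc4 and Nqo1; Gstm3, Gstm4, Gsta1, Gsta2 and Abcc4 also stand in the list of CAR and PXR targets. Nqo1, the quinone reductase, had 6.78 to 8.49 CPM at 3 mg/kg and 3.63 to 4.79 CPM in controls (0.80 ± 0.20, adjusted p = 0.0468). Its groups were apart, yet the call was lost in every fit without 1 library except that without replicate 1 at 3 mg/kg (adjusted p up to 0.151). Abcc4, an export pump for organic anions, had 2.59 to 3.41 CPM at 3 mg/kg and 0.624 to 1.27 CPM in controls (1.73 ± 0.38, adjusted p = 0.0188), and lost its call without control replicate 1 or 3 (adjusted p up to 0.0722). Gclc, which makes the rate-limiting subunit of glutathione synthesis, averaged 413 ± 109 CPM at 3 mg/kg and 325 ± 90.3 CPM in controls and was not called (adjusted p = 0.719).

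Many genes that run cell division rose at 3 mg/kg, most of them at a few CPM. Of 42 tested genes of mitosis and the spindle, 19 were called higher and none lower, beside 1.13% higher among all genes, and the median log2 fold change of the 42 was 1.80. Of the 19, 13 were called in each of the 8 fits without 1 library, and without replicate 4 at 3 mg/kg the list had 16 higher. Kif20a, a kinesin of cytokinesis, read 8.99, 18.4, 22.1 and 27.2 CPM at 3 mg/kg, against 3.50, 2.53, 3.02 and 4.28 CPM in controls. The groups did not overlap (log2 fold change 2.52 ± 0.30, adjusted p = 7.53e-05). Birc5, a subunit of the chromosomal passenger complex, read 4.01, 6.42, 9.03 and 7.25 CPM at 3 mg/kg, against 0.998, 0.704, 1.51 and 0.909 CPM in controls (2.65 ± 0.33, adjusted p = 8.87e-05). Cenpf, a kinetochore protein, had 2.77 to 6.39 CPM at 3 mg/kg and 0.749 to 0.844 CPM in controls, and the mitotic kinase gene Pbk had 8.02 to 16.9 CPM at 3 mg/kg and 2.12 to 4.36 CPM in controls. The other probe of Cenpf was not called (log2 fold change 1.12, adjusted p = 0.591). Top2a, Ccna2, Knstrn and Hmmr were called higher by every tested probe, with log2 fold changes of their main probes from 2.00 (Knstrn) to 3.14 (Hmmr). Without replicate 4 at 3 mg/kg, 1 other probe of Hmmr and 1 of Top2a lost their calls (adjusted p = 0.0615 and 0.0554), and they also lost them in 5 and 6 of the other 7 fits without 1 library. Replicate 1 was the lowest treated library for Kif20a, Birc5, Cenpf and Pbk. Mki67, the usual proliferation marker, read 1.52, 1.80, 1.87 and 0.191 CPM at 3 mg/kg, against 0.499, 0.704, 0.647 and 0.13 CPM in controls and was not called (adjusted p = 0.338, and 0.0576 without replicate 4). In bulk RNA, more dividing cells and more of these transcripts per cell cannot be told apart. The summed CPM of marker genes of other cell types is given further on; their part in these counts was not tested.

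Part of the DNA replication genes rose as well. Of 41 tested, 7 were called higher, Mcm6, Ccne2, Rrm2, Rpa2, Pole and Dtl among them, and none lower, with a median log2 fold change of 0.44. Among all genes 1.13% were called higher and 0.406% lower. Mcm6, a subunit of the replicative helicase (chr1:128331590-128359664), read 16.2, 29.4, 37.6 and 32.6 CPM at 3 mg/kg, against 3.12, 4.50, 4.96 and 5.58 CPM in controls. All treated libraries were above all controls (2.67 ± 0.26, adjusted p = 6.27e-06), and its other probe was called too. Ccne2, cyclin E2, averaged 8.33 ± 2.29 CPM at 3 mg/kg and 3.17 ± 0.697 CPM in controls, and Rrm2, which supplies deoxynucleotides, averaged 5.67 ± 2.48 and 1.35 ± 0.746 CPM in the same order. The other probe of Ccne2 was not called (log2 fold change 0.34, adjusted p = 0.86). Those of Rrm2 had log2 fold changes of 2.37 and 0.86 (adjusted p = 0.0286 and 0.599). Rpa2 lost its call without replicate 2 or 3 at 3 mg/kg or any one control (adjusted p up to 0.127). Pole lost it without replicate 3 or 4 at 3 mg/kg or control replicate 1, 2 or 3 (adjusted p up to 0.164), and Dtl without replicate 2 or 3 at 3 mg/kg or the same controls as Pole (adjusted p up to 0.117). None of 16 tested genes in a list of G1 phase regulators was called in either direction by edgeR, DESeq2 or limma-voom, and none had an unadjusted p under 0.05. That list leaves out Ccne2, which was counted with DNA replication, and Ccnd1 was not tested for low counts.

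Promoters of genes that rise late in the cell cycle are known to carry a CHR element and CCAAT boxes, and those of replication genes an E2F site, so the 250 bases before the transcription start were searched on both strands for TTTGAA (the CHR), CCAAT, and TTCCCGC or TTGGCGC (an E2F core). Of 10101 tested genes, 6222 had 1 RefSeq promoter. TTTGAA occurred in 11.1% of these, against 5 of the 13 mitosis genes called higher and 5 of the 19 not called that had a promoter. CCAAT occurred in 37.2% of all, in 8 of those 13 and in 12 of those 19. The E2F core occurred in 10.5% of all, in 3 of the 4 replication genes called higher and in 4 of the 23 not called. These are letter matches and not measured binding. The promoters of Cdc20, Ccnb2 and Mcm6 are shown, in capitals the matches to TTTGAA and CCAAT for Cdc20 and Ccnb2 and to the E2F core and CCAAT for Mcm6, all from RefSeq on GRCm38.p6 and read 5′ to 3′ on the minus strand, which carries the genes. They lie at chr4:118437344-118437593 (Cdc20), chr9:70421555-70421804 (Ccnb2) and chr1:128359706-128359955 (Mcm6).
Cdc20: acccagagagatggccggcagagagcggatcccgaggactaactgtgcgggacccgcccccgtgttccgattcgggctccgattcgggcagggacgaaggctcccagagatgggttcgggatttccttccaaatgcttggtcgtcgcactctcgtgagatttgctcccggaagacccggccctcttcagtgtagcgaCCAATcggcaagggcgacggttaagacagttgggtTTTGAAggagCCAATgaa
Ccnb2: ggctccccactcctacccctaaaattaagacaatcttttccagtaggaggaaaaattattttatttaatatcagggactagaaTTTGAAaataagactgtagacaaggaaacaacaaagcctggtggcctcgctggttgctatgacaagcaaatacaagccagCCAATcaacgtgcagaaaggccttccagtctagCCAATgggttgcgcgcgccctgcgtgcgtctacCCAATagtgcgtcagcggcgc
Mcm6: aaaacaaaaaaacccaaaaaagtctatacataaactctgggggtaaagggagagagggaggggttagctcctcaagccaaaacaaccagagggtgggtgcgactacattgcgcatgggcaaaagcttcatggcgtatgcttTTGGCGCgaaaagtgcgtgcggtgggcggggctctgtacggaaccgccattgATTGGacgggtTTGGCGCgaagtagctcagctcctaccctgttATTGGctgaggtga
Cdc20, the activator of the anaphase-promoting complex, with 3 matches, read 6.22, 6.54, 11.9 and 8.68 CPM at 3 mg/kg, against 1.12, 1.41, 1.62 and 0.779 CPM in controls (2.73 ± 0.37, adjusted p = 0.000294). Ccnb2, cyclin B2, with 4 matches, read 2.35, 4.39, 4.43 and 1.62 CPM at 3 mg/kg, against 0.749, 0.704, 0.647 and 0.909 CPM in controls (2.05 ± 0.39, adjusted p = 0.00622). Both had groups that did not overlap, and both were picked for their promoters after their values were seen.

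**Figure D4:**
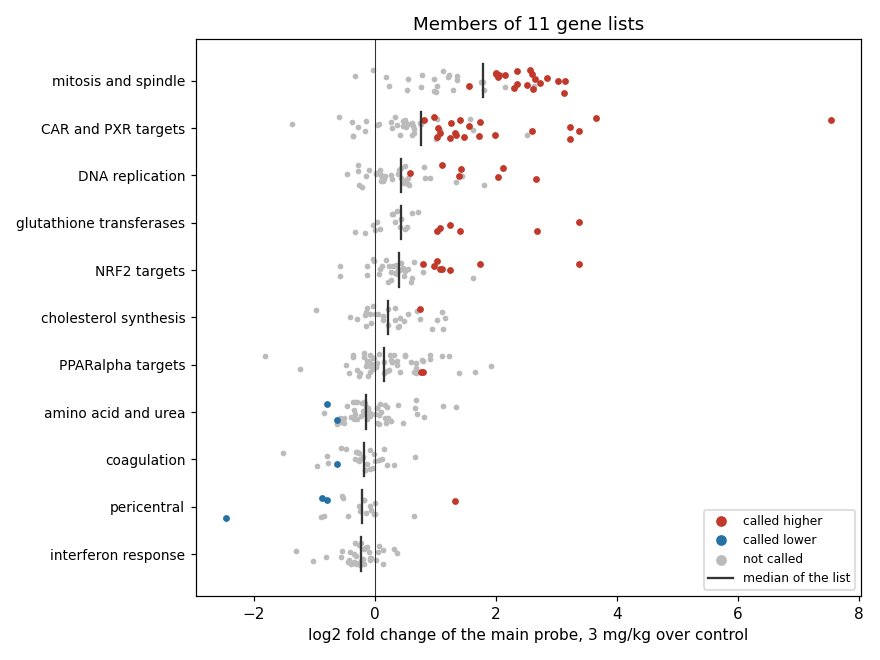
Log2 fold change of 3 mg/kg over control (x axis) for each tested member of 11 gene lists (1 row each), with called genes in colour and a line at each list's median. The mitosis list has its median at 1.80 and the CAR and PXR list at 0.77, and both hold called genes on the higher side alone.

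Growth and stress genes moved in both directions. Gadd45b, a stress and growth signal gene that CAR is known to induce (chr10:80930073-80932204), read 16.5, 26.6, 29.1 and 22.6 CPM at 3 mg/kg, against 3.00, 4.08, 1.40 and 1.69 CPM in controls. The groups did not overlap (3.23 ± 0.36, adjusted p = 3.57e-05), and its other probe was called with a log2 fold change of 4.02. Of 18 tested Gadd45 and immediate early genes, Gadd45b was called higher and 3 were called lower, beside 1.13% higher and 0.406% lower among all genes. The 3 encode transcription regulators switched on within minutes of a stimulus: Egr1, Junb and Ier2. Egr1 read 0.968, 0.225, 0 and 0.286 CPM at 3 mg/kg, against 2.37, 1.41, 1.29 and 7.14 CPM in controls. Its call was lost without replicate 2, 3 or 4 at 3 mg/kg or control replicate 4 (adjusted p up to 0.152), and those of Junb and Ier2 were lost without replicate 2, 3 or 4 at 3 mg/kg, without control replicate 2, 3 or 4 and, for Ier2, without control replicate 1 (adjusted p up to 0.151 for Junb and 0.136 for Ier2). Among 20 p53 targets none was called higher and Perp was called lower, at 0 to 0.553 CPM at 3 mg/kg and 0.649 to 1.94 CPM in controls, a call lost without replicate 2, 3 or 4 at 3 mg/kg or control replicate 1 or 3 (adjusted p up to 0.098). Cdkn1a, which encodes the cell cycle inhibitor p21, averaged 0.954 ± 0.758 CPM at 3 mg/kg and 0.422 ± 0.275 CPM in controls (adjusted p = 0.494).

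Few genes of fatty acid oxidation passed the threshold. Of 58 tested PPARα targets, 2 were called higher and none lower, with a median log2 fold change of 0.15, and 14 were higher and 2 lower at an unadjusted p under 0.05. DESeq2 called 7 of the 58 higher and limma-voom 1, both with none lower, and without replicate 4 at 3 mg/kg edgeR called 1 higher and 1 lower. Ehhadh, a peroxisomal β-oxidation enzyme, read 319.5, 454, 586 and 564 CPM at 3 mg/kg, against 339.7, 307, 250.5 and 229.9 CPM in controls. Replicate 1 lay within the control range (0.77 ± 0.19, adjusted p = 0.0372), and the call was lost without replicate 2, 3 or 4 at 3 mg/kg or control replicate 2, 3 or 4 (adjusted p up to 0.135). The other call was Fabp4, a fatty acid carrier, at 17.6 to 22.3 CPM at 3 mg/kg and 8.70 to 13.4 CPM in controls (0.80 ± 0.17, adjusted p = 0.0127), which was lost without control replicate 4 (adjusted p = 0.0523). Cyp4a14, a fatty acid hydroxylase used as a PPARα marker, read 3.60, 4.96, 7.16 and 4.29 CPM at 3 mg/kg, against 3.00, 2.67, 0.539 and 0.13 CPM in controls. The groups did not overlap, but the gene was not called (1.66 ± 0.50, adjusted p = 0.129). For its neighbour Cyp4a10 the main probe was not called, with a log2 fold change of 1.925 with replicate 4 at 3 mg/kg and 2.32 without it (adjusted p = 0.235 and 0.0504). The other probe, at 12.6, 22.99, 43.1 and 71.4 CPM at 3 mg/kg and 1.17 to 12.5 CPM in controls, was called higher (2.50 ± 0.56, adjusted p = 0.0283). That call was lost without replicate 4 at 3 mg/kg (log2 fold change 1.97, adjusted p = 0.0897), without replicate 3 at 3 mg/kg and without control replicate 1, 3 or 4 (adjusted p up to 0.105). Cpt1a and Pdk4, which are textbook PPARα targets, had log2 fold changes of 0.68 and 0.68 and adjusted p-values of 0.426 and 0.645. Bdh1, which makes the ketone body 3-hydroxybutyrate, averaged 405 ± 53.4 CPM at 3 mg/kg and 584 ± 89.1 CPM in controls (−0.53 ± 0.13, adjusted p = 0.0398), but its other probe was not called (−0.05), and the call of the main probe was lost without replicate 1, 3 or 4 at 3 mg/kg or control replicate 1, 2 or 3 (adjusted p up to 0.226).

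Lipid synthesis gave 1 call in each of its lists, beside 1.13% of all genes called higher. A single call says little about a list of this size. Of 30 lipogenic genes, Elovl6, a fatty acid elongase, was called higher, at 26.1, 29.4, 45.8 and 26.1 CPM at 3 mg/kg and 12.2, 15.3, 17.6 and 20.8 CPM in controls (0.95 ± 0.19, adjusted p = 0.00921). Of 31 genes of cholesterol synthesis, Fdft1, squalene synthase, was called higher, at 287 to 357 CPM at 3 mg/kg and 162 to 222 CPM in controls (0.74 ± 0.14, adjusted p = 0.00517). At an unadjusted p under 0.05, 10 genes of each list were higher and 0 lower. Some genes below the threshold had their highest treated value in replicate 4. Fasn, fatty acid synthase, read 7.61, 9.24, 10.4 and 35.1 CPM at 3 mg/kg, against 3.37 to 8.05 CPM in controls (1.58 ± 0.42, adjusted p = 0.0683), and its log2 fold change was 0.78 without that library. Sqle, an enzyme of cholesterol synthesis, had a log2 fold change of 1.13, and of 0.84 without it. Mttp, which loads lipid onto apolipoprotein B, was the 1 lipoprotein gene of 29 called higher, at 604 ± 139 CPM at 3 mg/kg and 390.5 ± 32.8 CPM in controls (0.63 ± 0.15, adjusted p = 0.0331). Its call was lost without replicate 3 or 4 at 3 mg/kg or any one control (adjusted p up to 0.118).

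Cyp7a1, which catalyses the first and limiting step from cholesterol to bile acids, was called higher, with a size that rested on 1 library. It read 20.8, 15.9, 13.8 and 348 CPM at 3 mg/kg, against 9.23, 7.60, 4.53 and 10.7 CPM in controls. Although all 4 treated libraries were above the controls, the log2 fold change of 3.65 ± 0.86 (adjusted p = 0.0372) became 1.08 (adjusted p = 0.308) without replicate 4. The call was also lost without any one control. No other of 21 bile acid synthesis genes was called, and Cyp8b1 and the bile salt pump Abcb11 had log2 fold changes of 0.55 and −0.17 (adjusted p = 0.361 and 0.66). The basolateral export pump Abcc3 showed the same pattern, at 43.9, 48.5, 52.98 and 223 CPM at 3 mg/kg and 26.3 to 35.3 CPM in controls. It was not called (1.63 ± 0.45, adjusted p = 0.0921), and its log2 fold change was 0.70 without replicate 4 (adjusted p = 0.429).

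Among secreted and transported proteins, 2 acute-phase genes were called higher. Orm3, an orosomucoid, read 1.80, 3.61, 10.2 and 4.39 CPM at 3 mg/kg, against 0.374, 0.141, 0.324 and 0.909 CPM in controls (3.44 ± 0.53, adjusted p = 0.00083). Orm2 averaged 28.6 ± 9.23 CPM at 3 mg/kg and 10.2 ± 5.11 CPM in controls, with a call lost without replicate 2, 3 or 4 at 3 mg/kg or control replicate 1, 3 or 4 (adjusted p up to 0.127). The orosomucoids are close copies. Saa1, serum amyloid A, averaged 145 ± 39.7 CPM at 3 mg/kg and 130.5 ± 76.5 CPM in controls (adjusted p = 0.925), and none of the other 22 acute-phase genes was called. Tfrc, the transferrin receptor, had 83.0 to 151 CPM at 3 mg/kg and 42.7 to 70.4 CPM in controls (1.07 ± 0.25, adjusted p = 0.0298), and lost its call without replicate 2 or 3 at 3 mg/kg or control replicate 1, 2 or 4 (adjusted p up to 0.113).

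C1ra, the gene lowest in log2 fold change among the named genes called lower, encodes the complement protease C1r (chr6:124512405-124523443). It read 3.87, 4.85, 5.28 and 0.572 CPM at 3 mg/kg, against 30.2, 23.9, 21.8 and 37.1 CPM in controls. Every treated library was below every control, and the log2 fold change was −2.998 ± 0.43 with replicate 4 and −2.60 ± 0.34 without it (adjusted p = 0.000659 and 0.000115). It has a single tested probe, and the other 30 complement genes were not called. Scly, selenocysteine lyase, fell to 17.8 ± 8.65 CPM at 3 mg/kg, against 54.5 ± 9.27 CPM in controls (−1.62 ± 0.31, adjusted p = 0.0074). Srsf9, a splicing factor, fell to 46.2 ± 15.5 CPM at 3 mg/kg, against 116 ± 11.2 CPM in controls (−1.33 ± 0.22, adjusted p = 0.00163). Neither gene's other probe moved with it: the log2 fold changes there were −0.11 for Scly and 0.02 for Srsf9. Dhrs1, a short-chain dehydrogenase, was called lower at −0.98 ± 0.20 (adjusted p = 0.0121) from its only tested probe.

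Amino acid enzymes gave 2 lower calls among 55 tested, beside 0.406% lower among all genes. Oat, ornithine aminotransferase of pericentral hepatocytes, read 119.5, 116, 100.2 and 98.2 CPM at 3 mg/kg, against 194, 165, 203 and 187 CPM in controls. The groups were far apart relative to their spread (−0.79 ± 0.13, adjusted p = 0.00232), and the change did not rest on replicate 4 (−0.74 without it). Mat1a, which makes the methyl donor S-adenosylmethionine, averaged 373 ± 82.9 CPM at 3 mg/kg and 573 ± 41.0 CPM in controls (−0.62 ± 0.15, adjusted p = 0.0468), and lost its call in all fits without 1 library but that without replicate 1 at 3 mg/kg (adjusted p up to 0.148). Of 20 pericentral genes, Oat, Lgr5 and Slc1a2 were called lower and Cyp2a5 higher, while none of 17 periportal genes was called by edgeR, DESeq2 or limma-voom and 2 had an unadjusted p under 0.05. Lgr5, a receptor that amplifies Wnt signals, read 1.66, 0.789, 0.511 and 0.0954 CPM at 3 mg/kg, against 2.62, 3.80, 5.39 and 4.41 CPM in controls (−2.45 ± 0.50, adjusted p = 0.0114). The glutamate transporter gene Slc1a2 averaged 13.8 ± 5.13 CPM at 3 mg/kg and 25.3 ± 4.64 CPM in controls, a call lost without replicate 3 or 4 at 3 mg/kg or control replicate 2, 3 or 4 (adjusted p up to 0.156).

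In some genes called lower, replicate 4 lay far below the other treated libraries, which were themselves below the controls. Gjb1, the connexin of hepatocyte gap junctions, read 13.6, 13.3, 12.8 and 0.382 CPM at 3 mg/kg, against 39.2, 34.3, 41.5 and 54.9 CPM in controls. With replicate 4 the log2 fold change was −2.11 ± 0.52 (adjusted p = 0.0495) and without it −1.68 ± 0.26 (adjusted p = 0.000639), so that removal of the outlying library lowered the p. The same held for Psenen, a γ-secretase subunit (−1.64, adjusted p = 0.000181 without it), and Dpy30, a subunit of histone methyltransferase complexes (−1.72, adjusted p = 0.00216 without it). The calls of Gjb1 and Dpy30 were lost in each of the other 7 fits without 1 library, with adjusted p up to 0.138 for Gjb1 and 0.11 for Dpy30. That of Psenen was lost without replicate 2 at 3 mg/kg or any one control (adjusted p up to 0.085). Other probes of Psenen and Dpy30 gave log2 fold changes of −0.13 and 0.08. Oaf read 19.5, 14.9, 11.2 and 1.62 CPM at 3 mg/kg, against 63.1 to 96.8 CPM in controls, and was called in none of the 8 fits without 1 library (adjusted p up to 0.124).

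Of the 41 genes called lower by their main probe, 29 had changed by 2-fold or more and 12 by less. Calu, a calcium-binding protein of the secretory pathway and among the 12, averaged 69.6 ± 6.91 CPM at 3 mg/kg and 135 ± 15.2 CPM in controls (−0.95 ± 0.20, adjusted p = 0.0159), but its other 2 probes had log2 fold changes of 0.21 and −0.09. Ahsg, the plasma protein fetuin-A, averaged 1135 ± 236 CPM at 3 mg/kg and 1757 ± 62.6 CPM in controls (−0.63 ± 0.16, adjusted p = 0.0424). Gdf10, a growth factor of the TGFβ family, the heparan sulfate proteoglycan gene Gpc4 and the adaptor gene Shc1 had log2 fold changes from −0.82 (Shc1) to −0.73 (Gpc4). Each of these 5 calls was lost without replicate 3 at 3 mg/kg; other removals that ended a call were replicate 1 at 3 mg/kg for Calu, replicate 2 at 3 mg/kg for Gdf10 and Gpc4 and replicate 4 at 3 mg/kg for all but Calu. Among controls they were replicates 1 and 4 for Calu, 1 to 4 for Ahsg, 1 and 2 for Gdf10, 3 and 4 for Gpc4 and 4 for Shc1. The adjusted p reached at most 0.14, for Ahsg.

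The other probes of a called gene were read as a check on each call. The counts run over probes, so probes of a gene that were called together each count as matched. There were 100 higher probes, of 65 genes, whose gene had another tested probe. Of these 100 probes, 65 had another probe called higher as well, and 94 had all other probes of the same sign, with a median log2 fold change of 1.65 at the other probes. Among higher genes named above, Cyb5a, Fdft1, Abcc4, Cyp3a41b, Fabp4, Elovl6, Orm3, Cdc20 and Tsku also had another tested probe that was not called. The log2 fold changes of those probes ran from 0.41 for Cyb5a to 2.62 for Tsku. Of 25 lower probes, of 25 genes, with another tested probe, edgeR called 0 of the other probes lower, 12 had all others of the same sign, and the median there was −0.06. At an unadjusted p under 0.05, 84 of the 100 and 3 of the 25 had another probe in the same direction, and DESeq2 and limma-voom each matched 2 lower probes. Without replicate 4 at 3 mg/kg the counts were 52 of 88 and 0 of 43. The median mean count was 74.2 over all 157 higher probes and 68.7 over all 54 lower probes, whether or not the gene had another probe. Among 3102 genes with at least 2 tested probes, 22 were called higher by all of them and 0 lower, with 80 and 23 at an unadjusted p under 0.05. Replicate 4 was the lowest treated library in 48 of the 54 lower probes, whereas replicate 1 was the lowest in 113 of the 157 higher ones. Abhd5, a cofactor of triglyceride breakdown, was called in both directions by different probes, with log2 fold changes of 0.85 and −1.68. Without replicate 4 at 3 mg/kg neither was called (adjusted p = 0.0762 and 0.0648).

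**Figure D5:**
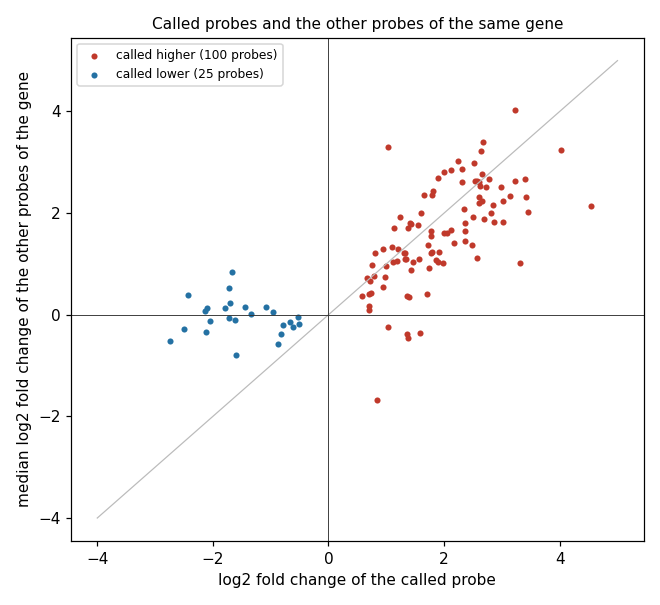
For each called probe whose gene has another tested probe, the log2 fold change of the called probe (x axis) against the median log2 fold change of the gene's other probes (y axis), with a line of equality. The 100 higher probes lie mostly along the line, and the 25 lower probes scatter around 0 on the y axis (median −0.06).

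Sex-dependent genes, which growth hormone pulses set in mouse liver, gave few calls. Of 27 female-biased genes, Cyp3a41b and Sult1e1 were called higher by edgeR and none lower. DESeq2 called 2 higher and 2 lower, limma-voom 2 higher and 1 lower, and edgeR without replicate 4 at 3 mg/kg 4 higher and 2 lower. The median log2 fold change of the 27 was 0.32, and the summed level of the list was 7070 to 11520 CPM at 3 mg/kg and 3880 to 4430 CPM in controls, of which Cyp3a41b alone had 6012 to 9852 and 2558 to 3345 CPM in the same order. Cyp3a41b has close copies and its probes were not checked for cross-annealing, so whose transcripts these counts hold is uncertain. None of 36 male-biased genes was called by edgeR, DESeq2 or limma-voom, and 1 was higher at an unadjusted p under 0.05. Elovl3 averaged 1306 ± 707 CPM at 3 mg/kg and 1752 ± 485 CPM in controls, and Hsd3b5, a male-specific steroid dehydrogenase, averaged 24.7 ± 12.8 and 37.8 ± 5.83 CPM in the same order (adjusted p = 0.655 and 0.556). The probes for major urinary proteins include close copies and none of 13 was called.

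Of 63 gene lists, 30 had a member called higher, 10 had one called lower, 3 had both and 26 had none. Those with none included 73 ribosomal protein genes, 68 of oxidative phosphorylation, 36 of the proteasome, 35 of the interferon response, 35 of glucose metabolism, 26 of the endoplasmic reticulum stress response, 23 heat shock genes and 20 of the circadian clock. At an unadjusted p under 0.05 these lists held 4, 3, 3, 4, 10, 2, 3 and 2 genes in that order. Over all probes the number was 1755 of 14122 in the fit without the robust option. DESeq2 called a member in 7 of the 26 lists and limma-voom in 0. The interferon list had a median log2 fold change of −0.23, and each of its 4 genes with an unadjusted p under 0.05 was lower.

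S100a8, a calcium-binding protein best known from neutrophils, rose at 3 mg/kg. It read 17.1, 36.6, 36.1 and 16.5 CPM at 3 mg/kg, against 3.12, 0.985, 0.863 and 1.17 CPM in controls (4.10 ± 0.44, adjusted p = 3.57e-05). Its partner S100a9 had 0.511 to 1.47 CPM at 3 mg/kg and 0.374 to 1.69 CPM in controls, and Elane, Camp and Prtn3 were at 0 in all 8 libraries. Of 14 neutrophil markers on the platform, 3 were tested and S100a8 was the 1 called. The summed level of the 14 was 19.0 to 40.5 CPM at 3 mg/kg and 4.31 to 8.61 CPM in controls, so that S100a8 made up most of it at 3 mg/kg. Pnliprp1, a pancreatic lipase relative, was called higher from 0.277 to 2.10 CPM at 3 mg/kg, with a count in 1 of 4 control libraries. Its lowest treated value lay under the level of 3 counts in that library, and its other tested probe was not called (log2 fold change 2.14, adjusted p = 0.366). The summed level of 21 exocrine pancreas markers was 4.77 to 5.79 CPM at 3 mg/kg and 4.42 to 11.5 CPM in controls. Fabp4 also stands in a list of 10 adipocyte markers, whose summed level was 579 to 1760 CPM at 3 mg/kg and 527 to 750 CPM in controls, most of it Car3 at 554 to 1740 and 515 to 732 CPM in the same order. Of the 10, Lep, Plin1, Cfd and Retn were at 0 in the 4 libraries at 3 mg/kg, and Cidec had counts in 4 libraries at 3 mg/kg and in 1 control. Their part in the Fabp4 value was not tested. No member of the Kupffer, stellate, endothelial, cholangiocyte, lymphocyte or erythroid marker lists was called by edgeR, and DESeq2 called 1 stellate marker higher. At an unadjusted p under 0.05 the 6 lists held 2, 4, 1, 0, 1 and 1 genes in that order. Summed levels were 293 to 419 CPM at 3 mg/kg and 281 to 358 CPM in controls for Kupffer cells, 300 to 434 and 454 to 501 CPM for stellate cells, and 479 to 514 and 446 to 509 CPM for endothelial cells in the same order. In the Kupffer sum, Mpeg1 alone had 115 to 278 CPM at 3 mg/kg and 81.6 to 117 CPM in controls. Of the 14 tested Kupffer markers, 3 had a positive log2 fold change, and the median was −0.19.

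Among 57 genes called higher at 3 mg/kg under the naming rule, the mean at 3 mg/kg lay between those at 0.3 and 6 mg/kg in 55. These genes were picked for a call at 3 mg/kg, so a mean there above that at 0.3 mg/kg was close to fixed in advance. The count is no test of a dose order, and the share over all genes was not computed. Among 23 called lower it did so in 15, and in the other 8 the mean at 3 mg/kg was the lowest of the 3 doses. Cyp7a1, 1 of the 2 exceptions among the higher genes, averaged 99.7 CPM at 3 mg/kg and 64.2 CPM at 6 mg/kg, and Scly, among the lower ones, averaged 17.8 CPM at 3 mg/kg and 29.3 CPM at 6 mg/kg. The means at both doses include a library with shifted probe ratios. All doses were set against the same 4 controls, so the values are given side by side and are not independent. Libraries at 0 and 0.03 mg/kg stood in plate row A, and those at 3 and 6 mg/kg in row B. At 0.3 mg/kg, replicates 1 to 3 stood in row A and replicate 4 in row B. The step from 0.3 to 3 mg/kg thus nearly coincides with the change of row, and dose and row cannot be told apart in it. Mean levels of Cyp2c66 at 0, 0.03, 0.3, 3 and 6 mg/kg were 0.49, 0.508, 4.57, 90.5 and 148 CPM, and those of Cyp2b10 were 62.2, 72.4, 167.5, 581 and 2149 CPM. Neither gene was called at 0.03 or 0.3 mg/kg (adjusted p of at least 0.2), so that 3 mg/kg was the lowest dose with a call for them. Kif20a averaged 3.33, 3.27, 3.61, 19.2 and 59.1 CPM over the same doses and Mcm6 4.54, 4.96, 6.09, 29.0 and 43.4 CPM. For these cell-division genes too, no change was called at the 2 lowest doses. Gadd45b averaged 2.54, 2.13, 1.78, 23.7 and 127 CPM. Cyp4a14 averaged 1.58, 0.619, 0.355, 5.001 and 114 CPM and was called at 6 mg/kg (log2 fold change 6.19, adjusted p = 1.04e-07) but not at 3 mg/kg. C1ra averaged 28.3, 24.5, 29.0, 3.64 and 2.27 CPM, with log2 fold changes of −2.998 at 3 mg/kg and −3.63 at 6 mg/kg.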

How the data were processed

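The authors deposited raw probe counts, as whole numbers, for 30146 probes of 21450 gene symbols in 20 libraries. The submitters' processing notes name Bowtie and, as build, GRCm38.p5; version and counting settings were not given in these sources. No row lacks a gene name. Probe positions were not used here, and gene coordinates come from the GENCODE M21 annotation of GRCm38.

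The default count filter of edgeR 4.0.16 (filterByExpr, R 4.3.3) passed 14122 probes of 10101 genes, with 99.8% of the counts. Libraries were scaled by TMM. A robust quasi-likelihood model with 1 mean per group was fitted to all 20 libraries, with Benjamini-Hochberg adjustment over all 14122 probes and a threshold of 0.05. Errors of log2 fold changes are standard errors, and CPM uses TMM-scaled library sizes. A count of 3 equals 0.303 to 0.44 CPM, a floor that covers counting error only. Alternatives were other scalings and count filters, DESeq2 1.42.0, limma-voom (limma 3.58.1), a non-robust fit, summed probes of a symbol, the 8 libraries alone, a plate row covariate, and the removal of single libraries. No 2 libraries of a group were copies (lowest chi-square per degree of freedom 10.2).

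The members and gene lists were chosen with earlier results of these data known. Named genes are called main probes without overlap between groups and with at least 20 CPM in the higher group, up to 15 in each direction by size; up to 4 members per list and direction by p; genes whose tested probes were all called in 1 direction, up to 15; and sentinel genes whatever their values. Some genes that this rule names are not reported here. Of the sentinels, Cyp1a1, Hmox1, Srebf1, Ccnd1 and Atf3 were not tested for low counts, and 37 of 49 tested were not called. On simulated data for 3 mg/kg against control, over 13645 probes, edgeR recovered 8.96% of 1.5-fold, 31.3% of 2-fold and 81.8% of 4-fold changes with 4 false among 85 calls. The simulated counts were drawn from the control means, with no library of shifted probe ratios and no difference between plate rows. These rates therefore need not hold for the real libraries.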

Additional observations from a re-analysis of the deposited data

Results flagged for a closer look

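Within groups of 4 libraries, single libraries far from the other 3 were looked for in 115 named genes; 15 of 230 groups held one, and chance gives about 1 in 20. Of these, 7 were replicate 4 at 3 mg/kg. In that library the values, with the range of the other 3 libraries at 3 mg/kg, were 348 CPM for Cyp7a1 (13.8 to 20.8), 0.382 CPM for Gjb1 (12.8 to 13.6), 778 CPM for Ugt2b35 (282 to 328), 4.196 CPM for Knstrn (5.39 to 5.63), 223 CPM for Abcc3 (43.9 to 52.98), 69.1 CPM for Sqle (34.2 to 37.8) and 35.1 CPM for Fasn (7.61 to 10.4). Its share of genes with a shifted probe ratio, 37.1%, also stood away from the 1.66% to 1.92% of the others.

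Replicate 3 at 3 mg/kg had 45.8 CPM for Elovl6 (others 26.1 to 29.4) and 16.4 CPM for Hist1h3c (10.8 to 11.5). Among controls, replicate 1 had 3.12 CPM for S100a8 (0.863 to 1.17), 2558 CPM for Cyp3a41b (3226 to 3345) and 45.3 CPM for Psenen (31.9 to 32.8). Control replicate 4 had 107 CPM for Shc1 (73.5 to 77.2), control replicate 3 had 1.08 CPM for Hmmr (0.125 to 0.281), and control replicate 2 had 0.141 CPM for Pnliprp1 while the others were at 0.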

How the results depend on the processing

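Each library came from 1 animal and the labels pair none of them across groups, so no paired analysis was made. The 211 calls (157 higher, 54 lower) became 387 (245, 142) with DESeq2, 44 (41, 3) on the 8 libraries alone and 1 (1, 0) with plate row as a covariate; other scalings and filters gave 205 to 226. Leaving out single libraries gave 124 to 279 calls (101 to 219 higher, 23 to 73 lower). Over the same settings, higher calls in the mitosis list numbered 12 by limma-voom, 7 on 8 libraries and 0 with plate row (13 to 23 without 1 library), in DNA replication 2 and 0 for the last 2 settings (4 to 8), among CAR and PXR targets 6 and 1 (16 to 26), and among NRF2 targets 5, 0 and 0 (6 to 10). Higher probes matched by another probe numbered 38, 14 and 0 (33 to 77), and lower ones 2 with DESeq2 and with limma-voom (0 to 2). Differences of 3 mg/kg minus control without 1 library ran from -647800 to 274900 in total counts, from -133.6 to 1302 in probes with a count and from -1.13 to 3.03 percentage points on the 10 highest probes.

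Of the called genes named, Pgrmc1 alone changed sign, with plate row as a covariate. With plate row as a covariate the log2 fold changes that changed sign were Pgrmc1 -0.03, Cyp3a11 0.03, Ppara 0.07, Gclc -0.66, Mdm2 -0.01, Hnf4a 0.01, Elovl3 0.10, Hspa5 -0.06, Saa1 -0.27, Igf1 0.00 and Dbp -0.47. With probes summed they were Cyp3a11 0.27 and Hnf4a 0.00. Without single libraries the log2 fold changes ran from -0.80 to 0.04 for Cyp3a11, -0.35 to 0.06 for Ppara, -0.36 to 0.93 for Myc, -0.20 to 0.14 for Hnf4a, -0.08 to 0.49 for Ddit3 and -0.05 to 0.62 for Saa1. The cause was not tested.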

Other observations

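Outside the gene lists, 47 genes were called higher and 28 lower. The higher genes given here were chosen after their values were seen. Hells, a chromatin remodeler, averaged 19.6 CPM at 3 mg/kg and 5.68 CPM in controls (log2 fold change 1.79, edgeR adjusted p = 0.000329). Knl1, a kinetochore scaffold, averaged 5.02 CPM at 3 mg/kg and 0.99 CPM in controls, and Esco2, which acetylates cohesin, averaged 12.98 and 2.89 CPM in the same order. Zwilch, Kntc1, Hmgb2, Stmn1 and Brca1 were called higher too, the last of them not without control replicate 2 (adjusted p = 0.0514).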
